A study of Mus musculus with 4 samples.

Results

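The genes described here encode the proteins of the cytosolic ribosome. They were chosen by symbol alone: Rpl or Rps followed by digits and at most 1 of the letters a, x or l, together with Rplp0, Rplp1, Rplp2 and Rpsa. The rule took 83 of the 55414 genes in the count matrices, 51 of the large and 32 of the small subunit. Genes such as Rps3a1, Fau, Rack1, Rpl22l1, Rpl36al and Rpl7l1 also belong to ribosomes or are close relatives of members, but fall outside the rule and are given apart. Expression was measured by single-cell RNA sequencing of dissociated liver from 2-month-old mice of genotype A/A or S/S. Mice were either untreated (baseline) or had received 500 ng of the inflammatory cytokine TNF intraperitoneally 3 h earlier. Each of the 4 groups had 1 library, made from the pooled cells of 2 mice. Where 4 values are listed, the baseline libraries come first and the TNF libraries after them, A/A before S/S within each. The labels do not say what A and S stand for, and name no other allele. Non-parenchymal cells had been enriched by low-speed spins, dead cells removed, and macrophages enriched by a flow sort, so numbers of cells per type follow the preparation. Without replicates no difference was tested. Brackets hold 95% intervals (exact binomial), and these reflect only the counting of molecules.

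Each ribosome carries 1 copy of most of these proteins, and their genes are among the most highly expressed in many cell types. Their mRNAs begin with a C followed by a run of pyrimidines, the 5′ TOP motif, through which the mTORC1 pathway and the RNA-binding protein LARP1 set their translation and stability. The share of a cell's mRNA given to these genes is known to be high in lymphocytes and low in mature neutrophils. A few genes have paralogs that replace them in particular tissues, such as Rpl3l in striated muscle and Rpl10l and Rpl39l in male germ cells.

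Windows of 30 bases, from 15 before to 15 after the annotated start of transcription, show the pyrimidine runs of members on which the results below turn. They were read from the RefSeq promoter table of GRCm38.p6, on the strand of the gene, with runs of at least 5 bases of C or T in capitals. Rps27 (chr3:90213634-90213663, minus strand) and Rps27l (chr9:66946071-66946100, plus strand) are a paralog pair used differently by cell types. Rpl3l (chr17:24727811-24727840, plus strand) is the paralog of Rpl3. Rps9 (chr7:3704026-3704055, plus strand) and Rpl31 (chr1:39367836-39367865, plus strand) are members with a cell-type bias. Rpl38 (chr11:114668565-114668594, plus strand), Rplp0 (chr5:115559452-115559481, plus strand) and Rps18 (chr17:33955651-33955680, minus strand) are members whose part of the total differed between libraries.
Rps27: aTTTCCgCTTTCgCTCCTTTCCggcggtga
Rps27l: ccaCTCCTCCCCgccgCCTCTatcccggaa
Rpl3l: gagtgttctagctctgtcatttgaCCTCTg
Rps9: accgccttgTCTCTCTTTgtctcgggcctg
Rpl31: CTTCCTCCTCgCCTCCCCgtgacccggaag
Rpl38: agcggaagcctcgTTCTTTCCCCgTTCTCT
Rplp0: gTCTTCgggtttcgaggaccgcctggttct
Rps18: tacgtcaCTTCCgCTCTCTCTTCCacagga
Of the 83 members, 61 had a promoter in the table. Within 25 bases of the first listed start, 30 of these 61 (49.2%) held a run of at least 8 pyrimidines on the gene's strand, against 19.4% of the 27025 genes in the table. On the opposite strand the shares were 8.20% of members and 21.1% of all genes. Among the windows printed, Rpl3l has the shortest longest run, 5 bases, and Rpl31 the longest, 13 bases, both counted over 25 bases either side of the start. A match describes the letters only, and annotated starts can miss the start that cells use.

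The matrices held 3230, 4983, 6531 and 5848 barcodes. At least 300 genes and at most 20% mitochondrial unique molecular identifiers (UMIs, each marking 1 captured molecule) were required, which kept 2830, 4366, 6452 and 5528 cells with a median of 4723.5 to 6504.5 UMIs. A cell joined a class when it had at least 4 of that class's marker genes and at least 2 times as many as of any other class. This placed 64.9 to 76.2% of cells. Another 433 to 1471 cells per library had markers of several classes and were left out, no doublet caller was run, and 11.6 to 13.2% of placed cells lay near the limit. Classes are called Kupffer-like, T cell-like and so on, since they rest on markers alone. Depth differed between classes. Median UMIs were 2182, 1461.5, 2191 and 2107 in Kupffer-like and 1777, 1272, 2740.5 and 1517 in hepatocyte-like cells. Monocyte or macrophage-like cells had 14571, 14606.5, 18832.5 and 18263. Among the 10 genes that set a class most apart in a library, 1 to 10 were its own markers, with 1 in endothelial-like cells of both TNF libraries and 2 in hepatocyte-like cells of both and in monocyte or macrophage-like cells of both S/S libraries. At most 1 of the 10 was a marker of another class. Between 4 and 12 barcodes were shared by any pair of libraries. Cell Ranger version and intron-rich genes touch all that follows. The file headers name Cell Ranger 7.1.0 for both baseline libraries and 6.1.2 for both TNF libraries, so version and treatment cannot be told apart, and whether introns were counted is not given in the sources used here. The share of UMIs from genes with over 100 kb of intron was 15.8, 10.4, 4.89 and 4.22%, so it differed between the versions and also between the baseline libraries. The part of these genes in the results was not tested by rerunning the counting. Results are also given over members and genes with under 5 kb of intron, a denominator chosen after seeing the data. Members are themselves a large part of it, so a ratio of their share is smaller in size than one against its other genes alone. The 18S rRNA entry Rn18s-rs5 took 16.7, 6.19, 14.3 and 13.9% of UMIs and was left out of all totals.

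The cytosolic ribosomal protein genes made up 14.6, 18.5, 14.6 and 13.2% of the UMIs of kept cells. All members but Rpl10l had at least 1 UMI, and 78 of 83 had at least 1000. The most abundant were Rps29 with 3.84% of member UMIs, Rps24 with 2.88%, Rps27 with 2.47%, Rpl37a with 2.46% and Rpl41 with 2.40%. The median of the 78 members was 1.25%. These are counts from a kit for 3′ ends, 1 per captured molecule, and were not scaled for gene length. Since it is not known whether introns were counted, the part of gene length in them was not tested. At the low end stood Rpl3l with 855 UMIs, Rpl6l with 451, Rpl39l with 227 and Rpl32l with 39 over all libraries. Annotated pseudogenes of ribosomal protein genes, 322 entries, held UMIs equal to 0.385 to 0.467% of those of the members. Reads from a member and a near-identical pseudogene could be split or dropped by the counting, and single members are uncertain to that degree.

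Cell classes differed widely in how much of their RNA came from the ribosomal protein genes. At baseline in A/A the share was 18.5% [18.48 to 18.56] in T cell-like cells and 2.12% [2.08 to 2.16] in neutrophil-like cells. T cell-like cells had 18.5, 21.7, 28.6 and 27.1% in the 4 libraries, and the B cell-like class had 15.8, 22.7, 29.0 and 27.9%. For NK or ILC1-like cells the values were 11.5, 17.8, 22.3 and 22.9%. These lymphocyte classes were lowest in the A/A baseline library and high in both TNF libraries. Plasmacytoid dendritic cell-like (pDC-like) cells had 14.2, 16.2, 18.7 and 20.5%. The monocyte or macrophage-like class had 14.6, 16.99, 13.9 and 15.05%. Kupffer cells are macrophages that live in the liver sinusoids, and the Kupffer-like class had 15.6, 21.8, 8.86 and 12.6%, and here both TNF libraries were the low ones. Hepatocyte-like cells had 6.85, 11.5, 7.52 and 10.2%, with both S/S libraries above both A/A libraries. Neutrophil-like cells had 2.12, 2.66, 2.01 and 1.89% and were the lowest class in every library among classes with at least 50 cells. Endothelial-like cells had 7.33 and 7.35% in A/A without and with TNF and 7.80% in S/S after TNF, and erythroid-like cells 6.79% in S/S baseline and 5.07% in S/S TNF. Most single erythroid-like cells lay lower, with medians of 3.90 and 3.01%. The other libraries held under 50 cells of these classes. Conventional dendritic cell-like cells passed that limit only in S/S TNF, with 21.7% in 76 cells. Below the limit they had 21.7, 31.2 and 20.4% in 33, 20 and 34 cells of A/A baseline, S/S baseline and A/A TNF. The 8 classes that passed 50 cells in all 4 libraries enter the medians over classes given below.

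**Figure D1:**
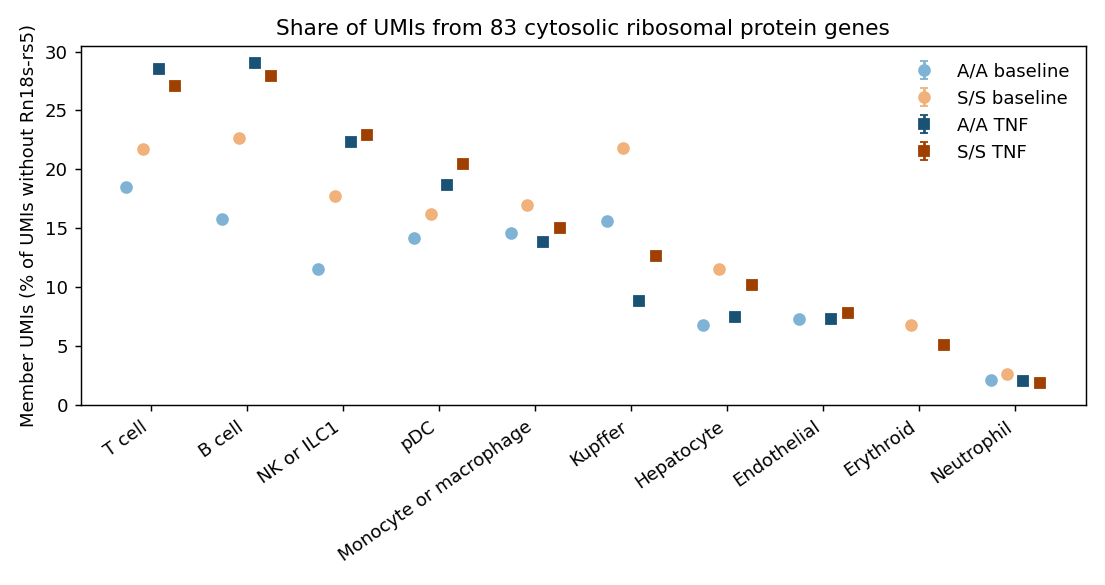
Share of UMIs, without Rn18s-rs5, that came from the 83 ribosomal protein genes (y axis, percent), by marker class (x axis) and library (colour; circles baseline, squares TNF). Bars, mostly smaller than the points, are exact binomial 95% intervals. Conventional dendritic cell-like cells are not shown. Among the classes shown, the lymphocyte classes are highest in both TNF libraries, at up to 29.0%. Neutrophil-like cells are near 2% in all libraries, and Kupffer-like cells have both TNF libraries (8.86 and 12.6%) below both baseline libraries.

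Over all genes without Rn18s-rs5, the Kupffer-like class was the one with the largest lower share after TNF in both genotypes. Over members and genes with under 5 kb of intron, neutrophil-like cells had the larger difference in both, as given below. In A/A it went from 15.6% of UMIs in 357 cells to 8.86% in 383 cells, 1.76-fold lower (log2 ratio -0.82 [-0.83 to -0.80]). In S/S it went from 21.8% in 406 cells to 12.6% in 244 cells, 1.72-fold lower (log2 ratio -0.79 [-0.80 to -0.77]). Single cells overlapped. In A/A the quartiles over cells were 11.5 and 19.6% at baseline and 5.98 and 11.8% after TNF. For S/S cells they were 15.8 and 26.98%, then 8.71 and 16.7%. The difference ran through the whole group. Of the 78 members with at least 20 UMIs in the pair, 64 were at least 1.5-fold lower in A/A, where 28.2% of all genes compared were, and none was as much higher. In S/S 67 of 78 were at least 1.5-fold lower, against 22.5% of all genes. Large and small subunit members did alike, with 38 of 46 and 26 of 32 lower in A/A and 40 of 46 and 27 of 32 in S/S. Over members and genes with under 5 kb of intron the ratios were -0.85 and -0.60, and 66 and 44 of 78 members were at least 1.5-fold lower by that measure, against 35.5 and 27.7% of all genes with under 5 kb of intron.

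Members of the Kupffer-like class differed in the size of their ratio. Rpl30, a protein of the large subunit, had 2037 and 2516 CPM (UMIs scaled to a common total per class and library) at baseline in A/A and S/S, and 756 and 1096 CPM after TNF. Both TNF values were below both baseline values, with log2 ratios of -1.43 [-1.56 to -1.30] and -1.20 [-1.32 to -1.08]. Rps4x, the X-linked form of a small subunit protein, had 1967 and 2824 CPM at baseline and 760 and 1433 CPM after TNF (log2 ratios -1.37 and -0.98). Rpl5, which binds the 5S rRNA together with Rpl11, had 975 and 1207 CPM at baseline and 430 and 508 CPM after TNF (-1.18 and -1.25). These 3 members were the lowest after TNF in A/A, and Rplp0 (-1.30), Rps15a (-1.26) and Rpl5 were in S/S. Among the stalk proteins, which recruit translation factors to the large subunit, Rplp0 had log2 ratios of -0.91 (A/A) and -1.30 (S/S), Rplp1 -0.71 and -0.88, and Rplp2 -0.48 and -0.65. Rpsa, a small subunit protein also known as a laminin receptor precursor, had -0.54 and -0.69. At the upper end Rps4l, listed as a transcribed pseudogene, was the single member above 0, at 0.20 [-0.83 to 1.30] and 0.33 [-0.66 to 1.38], on 14 and 15 UMIs at baseline and 21 and 23 after TNF. Next came Rps27l (-0.26), Rps9 (-0.27) and Rps10 (-0.29) in A/A, and Rpl38 (-0.25), Rps9 (-0.36) and Rps6 (-0.36) in S/S.

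**Figure D2:**
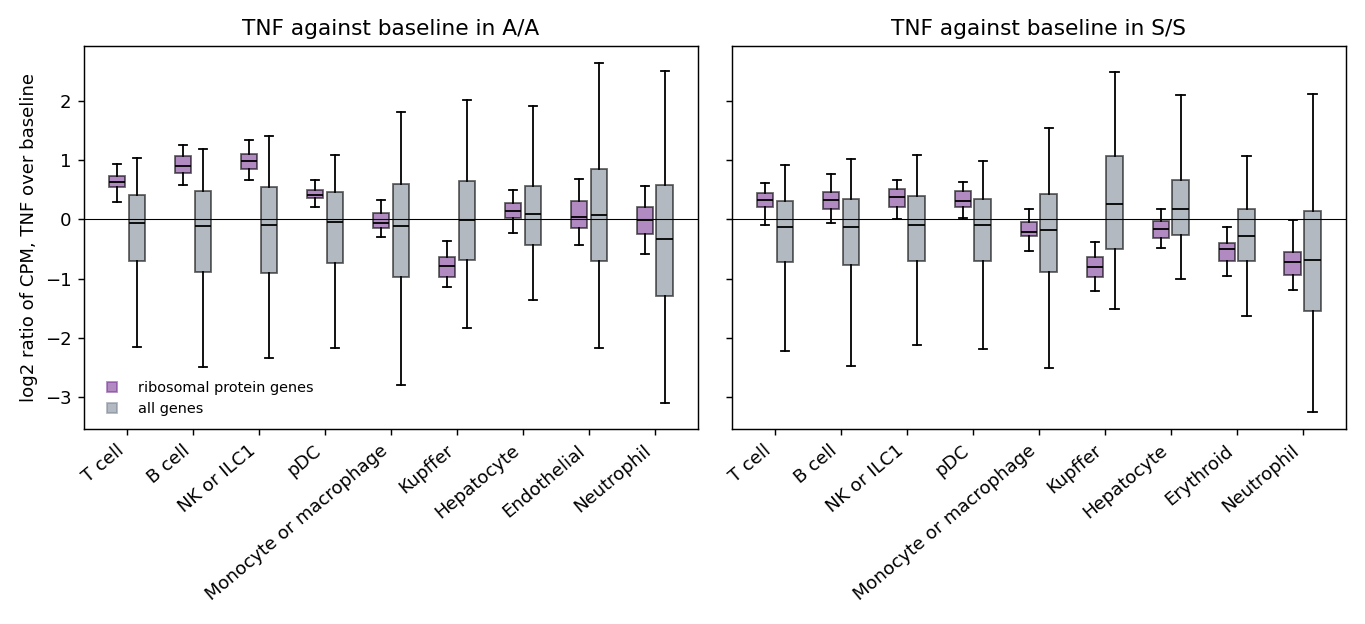
Log2 ratios of CPM, TNF over baseline, for the ribosomal protein genes (purple) and for every gene compared (grey; 20 UMIs or more over both libraries), by class, in A/A (left) and S/S (right). Boxes span the quartiles, lines mark medians and whiskers run from the 5th to the 95th percentile of genes. Member boxes are narrow; in Kupffer-like cells their medians lie at -0.79 and -0.81, and in B cell-like cells of A/A at 0.91.

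Other gene groups of the protein synthesis machinery did not all follow. Of 22 translation factors and other TOP mRNAs in Kupffer-like cells, 11 were at least 1.5-fold lower and 1 higher in A/A (median log2 ratio -0.64), and 10 were lower and 3 higher in S/S (median -0.43). In this list Eif3h, a subunit of initiation factor eIF3, was at -0.99 and -1.24, Eif3k at -1.08 in A/A and Eef1d at -1.23 in S/S, while Vim, an intermediate filament gene with a TOP mRNA, was at 1.21 in A/A. Hosts of small nucleolar RNAs, whose spliced transcripts carry TOP sequences, had 7 of 10 lower in A/A (median -0.75) and 7 of 9 in S/S (median -0.77). Gas5, the best known of them, had 290 and 347 UMIs at baseline and 130 and 151 after TNF, log2 ratios of -1.52 [-1.84 to -1.23] and -1.47 [-1.76 to -1.20]. Genes of mitochondrial ribosomal proteins had 29 of 73 lower and 5 higher in A/A, and 39 of 71 lower and 5 higher in S/S. All these counts stand beside the 28.2 and 22.5% of all genes that were at least 1.5-fold lower, and the 27.1 and 39.4% that were as much higher.
Ribosome biogenesis factors, which make and process rRNA in the nucleolus, had positive medians. In A/A 33 of 44 were at least 1.5-fold higher and 1 lower (median 1.13), against 27.1% of all genes higher. In S/S 24 of 40 were higher and 1 lower (median 0.83), against 39.4% of all genes higher. The medians of all genes were -0.02 and 0.26. Rrs1 was at 3.32 [2.29 to 4.96] in A/A, from 6 to 86 UMIs, and Mybbp1a at 2.90 [2.00 to 4.17] in S/S, from 9 to 87 UMIs. Myc, the transcription factor known to drive both ribosome biogenesis and ribosomal protein genes, was at 1.96 [1.12 to 3.05] and 1.13 [0.25 to 2.16], on 12 and 14 UMIs at baseline and 63 and 38 after TNF. Larp1, the TOP mRNA-binding protein, was at 1.95 [1.49 to 2.48] and 2.67 [2.00 to 3.51]. It was the highest of those compared among 13 listed genes that control TOP mRNA translation. Of 9 compared in A/A, 2 were at least 1.5-fold higher and 2 lower (median 0.48, lowest -2.12), against 27.1 and 28.2% of all genes. Of 7 compared in S/S, 4 were higher and 0 lower (median 0.76, lowest -0.51), against 39.4 and 22.5% of all genes. Of the 7 ribosome genes and relatives outside the rule, 2 in A/A and 3 in S/S were at least 1.5-fold lower, against 28.2 and 22.5% of all genes. None was as much higher (medians -0.21 and -0.27). Fau was at -1.04 and -0.77 and Rack1 at -0.88 and -0.68, whereas Rps3a1 was at 0.02 [-0.34 to 0.38] and 0.16 [-0.18 to 0.50].

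Several properties of the Kupffer-like class moved with treatment. Its own 11 markers, all detected in each library, summed to 1.98, 1.66, 1.82 and 1.36% of UMIs. Monocyte or macrophage markers, of which 11 or 12 of 12 were seen (Ace at 0 in both A/A libraries), summed to 0.0791, 0.117, 0.192 and 0.307%. Neutrophil markers, 11 to 14 of 14 seen (Ltf at 0 in all but S/S baseline), summed to 0.0169, 0.0278, 0.111 and 0.0688%. Hepatocyte markers, 13 or 14 of 14 seen, summed to 0.116, 0.0895, 0.216 and 0.187%. Their part in the lower ribosomal protein share was not tested. Mitochondrial genes took 3.80, 5.45, 7.98 and 7.11% of UMIs, and without them in the total the A/A and S/S ratios were -0.75 and -0.76. With a stricter gate they were -0.84 and -0.81. The nuclear RNA Malat1 took 0.153, 0.119, 0.328 and 0.764% of UMIs in this shallow class. In monocyte or macrophage-like cells it took 1.54, 1.57, 0.940 and 1.01%, and in hepatocyte-like cells at most 0.0810%. Its part, and whether the Kupffer-like barcodes held whole cells, was not tested. A smaller share of UMIs and fewer transcripts per cell cannot be told apart, since the counts give no total RNA per cell.

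In the lymphocyte classes the ribosomal protein share was higher after TNF, by an amount that depended on genotype and on the denominator. In A/A it was 1.84-fold higher in B cell-like cells, 1.94-fold in NK or ILC1-like cells and 1.54-fold in T cell-like cells. At least 1.5-fold higher were 75 of 79 members in B cell-like cells (21.0% of all genes), 75 of 78 in NK or ILC1-like cells (23.9%) and 52 of 80 in T cell-like cells (16.7%). In S/S the share was 1.23-, 1.29- and 1.25-fold higher in the same classes, and 9 of 79, 10 of 78 and 6 of 79 members passed 1.5-fold, shares below the 14.7, 16.2 and 12.7% of all genes. The pDC-like class was 1.32-fold higher in A/A and 1.26-fold in S/S. The UMI share of genes with over 100 kb of intron moved with these values: in B cell-like cells it was 19.4, 12.5, 4.60 and 4.52%. Over members and genes with under 5 kb of intron, the log2 ratios in A/A were 0.25, 0.31 and 0.12 in place of 0.88, 0.95 and 0.62 for B cell-like, NK or ILC1-like and T cell-like cells. The counts of members past 1.5-fold then were 9 of 79 in B cell-like and 9 of 78 in NK or ILC1-like cells, against 12.8 and 19.6% of all genes on that scale. In S/S the ratios over that denominator were 0.03, 0.11 and 0.07. The direction stayed in each of these classes, and the ratios over that denominator were smaller. Part of this follows from the members being in it. In A/A B cell-like cells members took 15.8 and 29.0% of UMIs without and with TNF. Genes with under 5 kb of intron took 37.1 and 57.4%. Ratios against the other genes with under 5 kb of intron alone are not given.

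**Figure D3:**
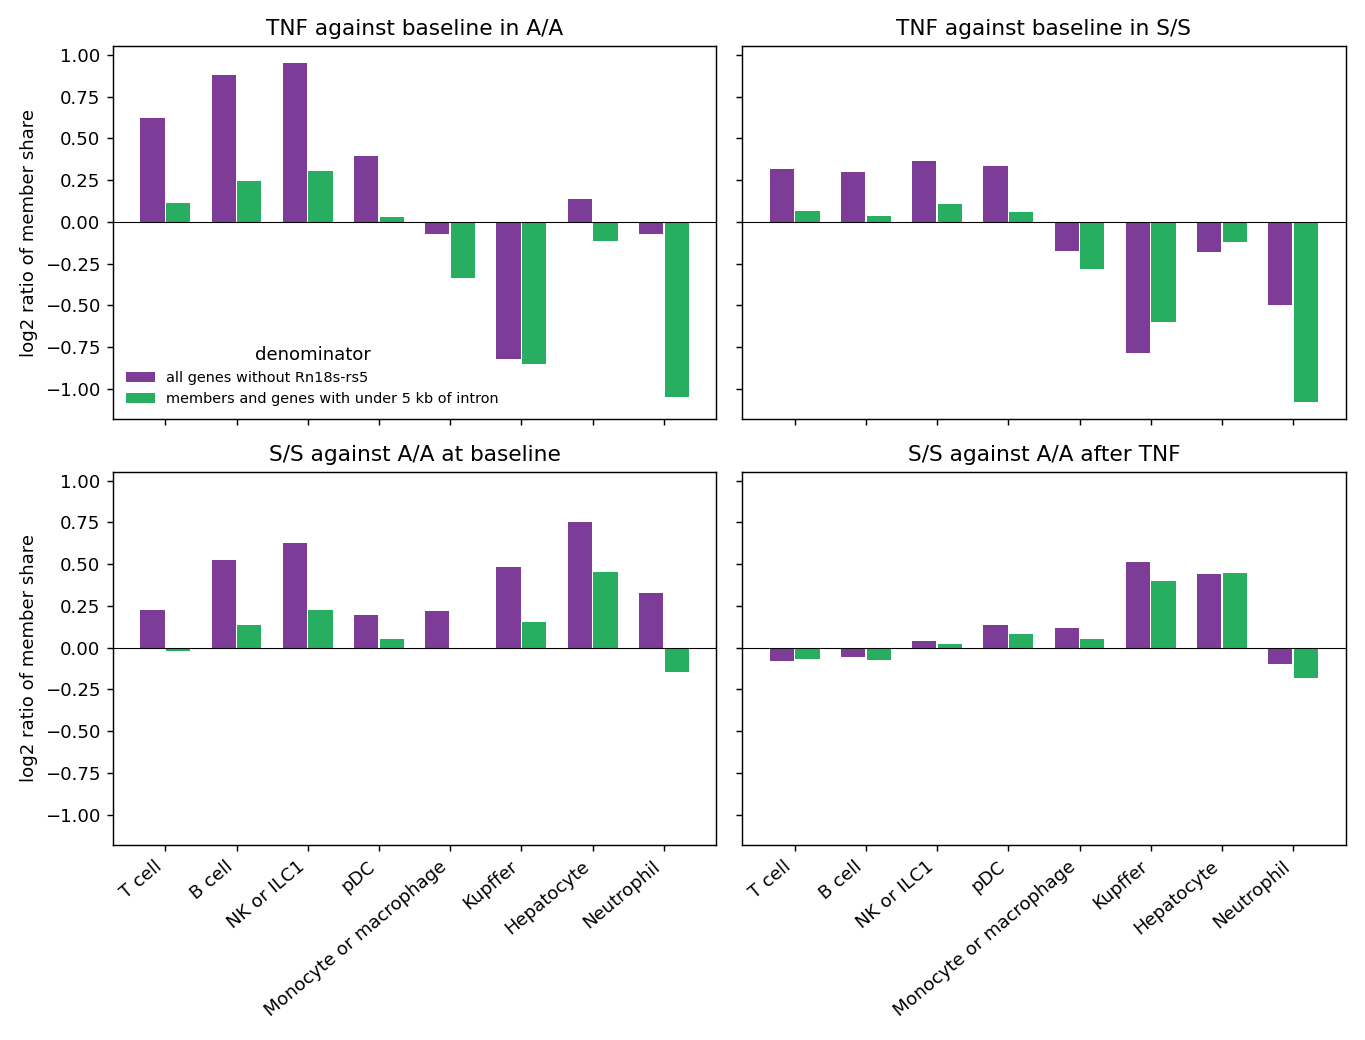
Log2 ratio of the ribosomal protein share in each comparison (4 panels), for the 8 classes with at least 50 cells in every library, over all genes without Rn18s-rs5 (purple) and over members and genes with under 5 kb of intron (green). Kupffer-like cells keep -0.85 and -0.60 after TNF, whereas the values of B cell-like cells in A/A go from 0.88 to 0.25 and those of neutrophil-like cells from -0.07 to -1.05.

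Neutrophil-like cells also had lower log2 ratios over members and genes with under 5 kb of intron, but there the difference grew in size. After TNF their share was 1.05-fold lower in A/A and 1.41-fold lower in S/S, and 53 of 78 members were at least 1.5-fold lower in S/S, but so were 53.6% of all genes, whose median log2 ratio was -0.69. Relative to that median 3 of 78 members passed, against 31.9% of all genes. Over members and genes with under 5 kb of intron the log2 ratios were -1.05 and -1.08, with the share going from 7.50 to 3.62% in A/A and from 6.77 to 3.20% in S/S. Neutrophil markers themselves made up 4.90 to 19.0% of the UMIs of this class, lowest in the A/A baseline library, and their part was not tested. Monocyte or macrophage-like cells were 1.05- and 1.13-fold lower after TNF, with 51 cells in the A/A baseline library. Hepatocyte-like cells differed in sign between genotypes, with a log2 ratio of 0.13 [0.11 to 0.16] for A/A and of -0.18 [-0.20 to -0.16] for S/S. Over genes with under 5 kb of intron they were at -0.11 and -0.12. Endothelial-like cells had nearly the same share before and after TNF in A/A, 7.33 and 7.35%, although 44 of 45 ribosome biogenesis factors were at least 1.5-fold higher there, with a median of 2.32, against 32.7% of all genes. Erythroid-like cells of S/S were 1.34-fold lower after TNF.

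Between genotypes at baseline the S/S library had the higher ribosomal protein share in 8 of 8 classes, with log2 ratios from 0.19 in pDC-like to 0.75 in hepatocyte-like cells. At least 1.5-fold higher in S/S were 60 of 78 members in hepatocyte-like cells (23.2% of all genes), 54 of 78 in NK or ILC1-like cells (15.7%), 39 of 79 in B cell-like cells (12.5%) and 33 of 78 in Kupffer-like cells (11.6%). Over members and genes with under 5 kb of intron these counts were 23, 3, 0 and 1, against 19.7, 12.9, 8.19 and 8.43% of all genes on that scale. Scaled to the median ratio of all genes, which was -0.32 in Kupffer-like cells, the count there was 67 of 78, against 24.2% of all genes. Over the genes with little intron, the ratio of T cell-like cells changed sign, from 0.23 to -0.02. Hepatocyte-like cells kept 0.45 on that scale. Their erythroid markers (7 to 11 of 11 seen, Hemgn at 0 in all but S/S baseline) summed to 0.0152, 0.241, 0.0196 and 0.146% of UMIs, higher in both S/S libraries. Their neutrophil markers (8 to 12 of 14 seen, Ltf and Stfa2l1 at 0 in every library) summed to 0.296, 0.490, 0.714 and 0.560%. The part of either was not tested. In hepatocyte-like cells Rpl29, a large subunit protein, had 348 CPM in A/A and 849 in S/S (log2 ratio 1.29 [0.999 to 1.58]), Rplp0 783 and 1854 CPM (1.24 [1.05 to 1.44]) and Rps15a 627 and 1467 CPM (1.23 [1.01 to 1.44]). At the other end were Rpl35a (0.15), Rps28 (0.20) and Rps6 (0.29), the small subunit protein phosphorylated downstream of mTORC1.

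After TNF the genotypes were close in most classes. T cell-like, B cell-like, NK or ILC1-like, pDC-like, neutrophil-like, endothelial-like and monocyte or macrophage-like cells had log2 ratios of S/S over A/A between -0.09 and 0.13. Kupffer-like cells were at 0.51 and hepatocyte-like cells at 0.44, or 0.40 and 0.45 over genes with under 5 kb of intron. At least 1.5-fold higher were 30 of 78 members in Kupffer-like cells, against 14.4% of all genes, and 8 of 78 in hepatocyte-like cells, below the 18.4% of all genes. In Kupffer-like cells Rps4x (0.91 [0.78 to 1.05]), Rps18 (0.81) and Rps7 (0.78) were the highest members and Rpl27 (0.09), Rps27l (0.14) and Rpl31 (0.15) the lowest. The same class had 12 of 44 ribosome biogenesis factors at least 1.5-fold lower in S/S and 1 higher, against 18.3% of all genes lower. Both TNF libraries were made with 1 Cell Ranger version, and their shares of UMIs from genes with over 100 kb of intron, 4.09 and 3.82% in Kupffer-like cells, were close. Each comparison here shares a library with 2 of the others, so they are not independent of each other.

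The make-up of the ribosomal protein mRNA pool, each member as a percent of all member UMIs, does not depend on the denominator of all genes. Over the 77 members with enough UMIs, the class with the highest mean differed from that with the lowest by a median of 1.77-fold. In 32 of 77 members this was at least 2-fold. Since both classes were picked per gene as the extremes of 8, these sizes are a description. Rps27l differed most. It made up 0.865, 0.842, 0.865 and 0.894% of the pool in hepatocyte-like cells and 0.0451, 0.0542, 0.0506 and 0.0559% in B cell-like cells, 16.9-fold less. Its paralog Rps27 did the reverse, with 1.23, 1.22, 1.25 and 1.04% in hepatocyte-like cells, 4.09, 3.25, 3.33 and 2.98% in B cell-like cells and 6.08, 4.06, 5.71 and 5.71% in neutrophil-like cells. Both genes have start windows printed above.

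In neutrophil-like cells some members took an unusual part of the pool. Rps9, a small subunit protein, held 9.68, 5.70, 9.73 and 11.5% of their member UMIs, against 1.25 to 1.32% in NK or ILC1-like cells and 2.32 to 2.70% in monocyte or macrophage-like cells. As a level, Rps9 stood at 2050, 1518, 1960 and 2178 CPM there, below the 2684, 3009, 4085 and 3834 CPM of T cell-like cells. NK or ILC1-like cells had 1499, 2322, 2786 and 3024 CPM of Rps9 and hepatocyte-like cells 936, 1524, 1090 and 1449 CPM, so the neutrophil-like level was above that of hepatocyte-like cells in 3 of 4 libraries and above that of NK or ILC1-like cells in 1 of 4. The neighbour of Rps9 on the opposite strand, Pirb, a receptor gene of myeloid cells 4511 bp away in GRCm38, had 527, 446, 1011 and 991 CPM in neutrophil-like cells and at most 9.40 CPM in T cell-like cells, but also 264, 429, 1034 and 912 CPM in monocyte or macrophage-like cells. Its part was not tested. The S/S baseline library stood apart in this class, with the lowest values of Rps9 and Rps27. Among the 10 genes that set the class most apart, this library had the markers Ngp, Camp, Ltf and Lcn2. A/A baseline had none of these, and both TNF libraries had Ngp, Camp and Lcn2. The mix of neutrophils may thus differ between libraries, and its part was not tested. Rpl12, which binds beside the stalk, was highest in T cell-like cells (1.35 to 1.48%) and lowest in neutrophil-like cells (0.256 to 0.494%). Rpl10a was highest in hepatocyte-like cells (0.839 to 0.981%) and also lowest in neutrophil-like cells (0.201 to 0.346%). Rpl31, a protein near the exit of the peptide tunnel, marked the pDC-like cells, at 1.18, 1.07, 1.18 and 1.20% of the pool against 0.220 to 0.281% in T cell-like cells. In CPM this was 1675, 1729, 2207 and 2461 against 503, 476, 790 and 761.

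**Figure D4:**
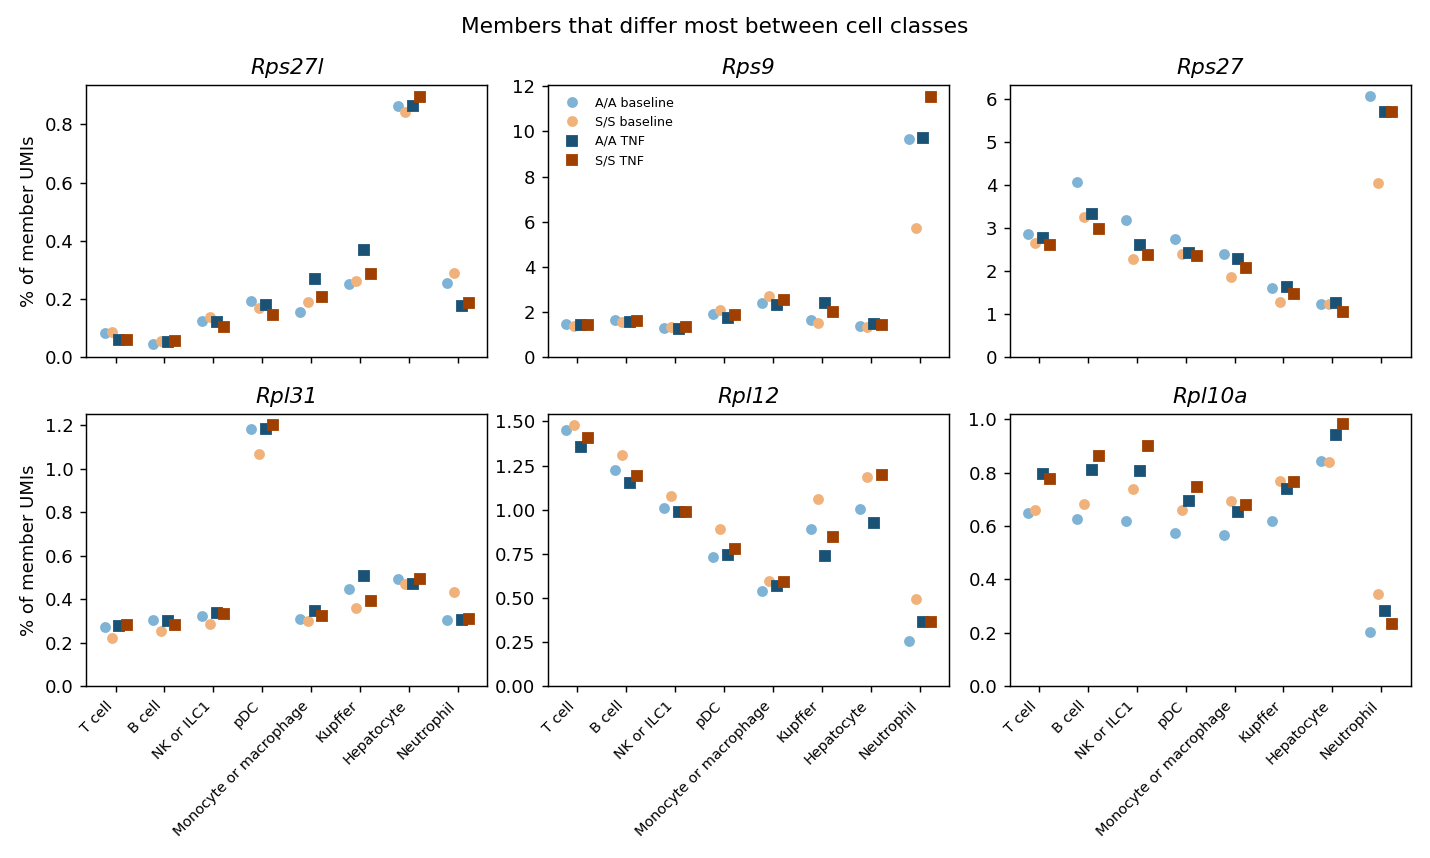
Percent of all member UMIs (y axes, from 0, each with its own scale) held by the 6 members that differ most between classes, by class (x axis) and library (colour; circles baseline, squares TNF). Rps27l stands out in hepatocyte-like cells at 0.842 to 0.894%, Rps9 in neutrophil-like cells at 5.70 to 11.5% and Rpl31 in pDC-like cells at 1.07 to 1.20%.

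Paralog use was read as the share of the minor gene in the UMIs of its pair. In hepatocyte-like cells the A/A baseline library had 293 UMIs of Rps27l beside 415 of Rps27, and the Rps27l share was 41.4, 40.7, 40.9 and 46.3% in the 4 libraries. Kupffer-like cells had 13.5, 16.9, 18.3 and 16.3%, the monocyte or macrophage-like class 6.12, 9.32, 10.6 and 9.11%, and B cell-like cells 1.09, 1.64, 1.498 and 1.84%. The ranges of these 4 classes do not overlap. Within hepatocyte-like cells the intervals of all libraries overlap, the highest being 46.3% [42.9 to 49.6] in S/S TNF.

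Rpl3l, a paralog known from heart and skeletal muscle, had its highest share in neutrophil-like cells. It gave 20, 18, 293 and 174 UMIs there beside 24, 74, 458 and 262 of Rpl3, shares of 45.5% [30.4 to 61.2], 19.6% [12.03 to 29.1], 39.0% [35.5 to 42.6] and 39.9% [35.3 to 44.7]. It was seen in 19 of 114, 16 of 138, 186 of 1371 and 133 of 1023 cells. T cell-like cells had 0, 0, 1 and 2 UMIs of Rpl3l beside 3915 to 14641 of Rpl3. In comparison, hepatocyte-like and B cell-like cells had 0 in all libraries, and monocyte or macrophage-like cells had 0.295, 0.760, 0.631 and 0.671%. In hepatocyte-like cells 0 of 277 to 390 UMIs have exact upper limits of 0.941 to 1.32%, and shares of 0.769 to 1.08% would correspond to 3 UMIs. Both genes enter the share. Rpl3 was at 46.5, 122, 64.5 and 48.8 CPM in neutrophil-like cells, and Rpl3l at 38.8, 29.6, 41.3 and 32.4 CPM. Msrb1, a methionine sulfoxide reductase gene on the same strand, starts 498 bp after the end of Rpl3l in GRCm38. It had 2370, 1978, 1914 and 1752 CPM in neutrophil-like cells, 687, 771, 564 and 817 CPM in hepatocyte-like cells, where Rpl3l was at 0, and 24.3 to 65.3 CPM in T cell-like cells. Its part in the Rpl3l counts was not tested, and the counts do not show where in the gene the reads lay.

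The other paralogs were minor. Rps4l, annotated as a transcribed processed pseudogene, gave 6.53, 5.49, 5.61 and 4.85% of the UMIs of Rps4x and Rps4l in hepatocyte-like cells and 0.105, 0.159, 0.201 and 0.242% in T cell-like cells. In endothelial-like cells it gave 3.68, 6.98 and 5.70%, without the S/S baseline library. Rpl39l was 0.0337, 0.0271, 0.0922 and 0.0690% of the UMIs of Rpl39 and Rpl39l over all kept cells. Rpl6l, annotated as a processed pseudogene, was 0.227, 0.263, 0.158 and 0.161% of its pair with Rpl6, and Rpl32l at most 0.0168% of its pair with Rpl32. Rpl10l had 0 UMIs beside 24716, 57494, 65392 and 71944 of Rpl10. Among relatives outside the rule, Rpl22l1 gave 23.7, 26.5, 27.9 and 25.6% of the UMIs of Rpl22 and Rpl22l1 over all kept cells, and Rpl36al 25.9, 23.2, 35.3 and 36.2% of those of Rpl36a and Rpl36al. In Kupffer-like cells the Rpl36al share was 27.4, 23.6, 40.6 and 35.4%, higher in both TNF libraries. Rpl36al itself was at 437, 495, 379 and 452 CPM there, not higher after TNF, and Rpl36a at 1161, 1607, 554 and 824 CPM, lower after TNF. In monocyte or macrophage-like cells the share was 38.3, 32.8, 58.0 and 48.6%, and here Rpl36al was the gene with higher values after TNF, 471, 449.6, 868 and 718 CPM. Rpl7l1, which acts in ribosome assembly, was 4.78, 4.94, 10.3 and 7.93% of its pair with Rpl7 in Kupffer-like cells, with Rpl7l1 at 60.1, 78.1, 63.7 and 70.6 CPM and Rpl7 at 1197, 1501, 554 and 819 CPM.

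**Figure D5:**
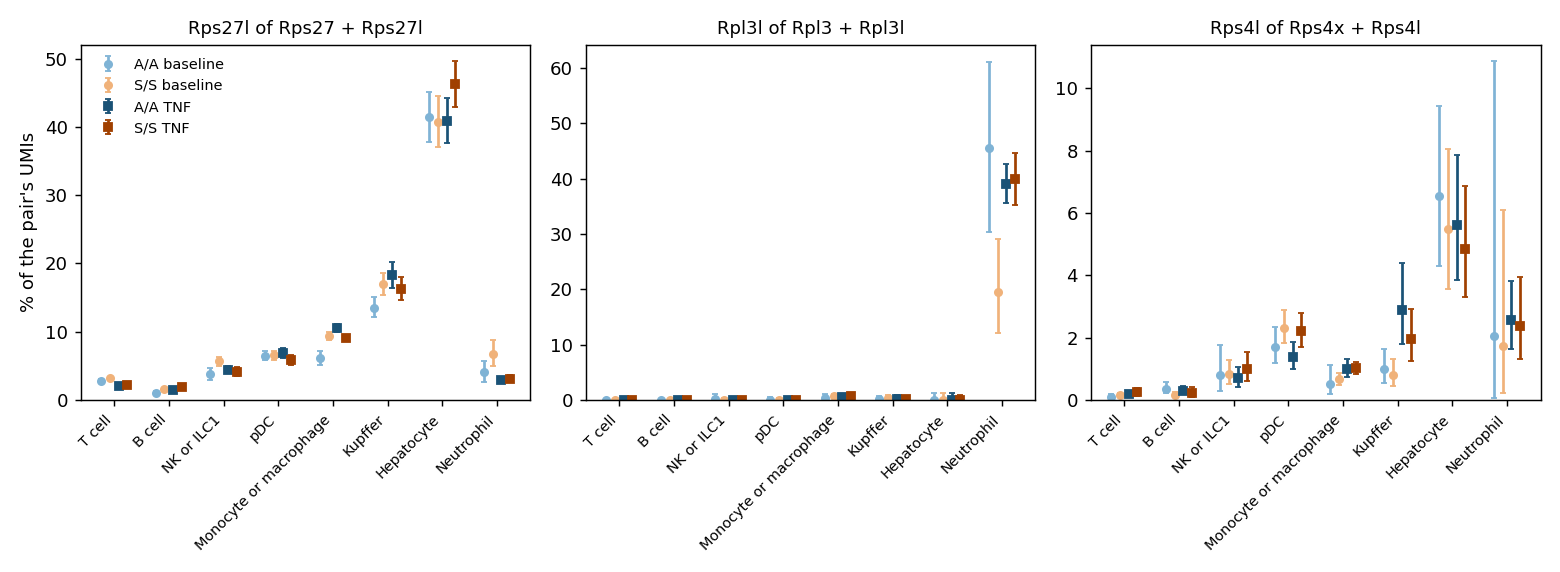
Share of the minor paralog in the UMIs of its pair (y axes, percent, each with its own scale) by class and library (colour; circles baseline, squares TNF), with exact binomial 95% intervals. Rps27l reaches 40.7 to 46.3% in hepatocyte-like cells, Rpl3l reaches 19.6 to 45.5% in neutrophil-like cells and is at most 0.760% in the other classes, and Rps4l is at 4.85 to 6.53% in hepatocyte-like cells.

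Across libraries the pool shifted by small amounts that were shared by many classes. The members named here and below were picked for the largest medians over the same 8 classes, and the classes share libraries. Counts of classes with the same sign are thus a description and not independent support. Rpl30 was a smaller part of the pool after TNF in 8 of 8 classes in both genotypes, and its median log2 ratio was -0.44 for A/A, -0.46 for S/S. In T cell-like cells it was 1.48, 1.495, 1.18 and 1.08% of member UMIs, and in hepatocyte-like cells 1.33, 1.17, 1.01 and 0.865%, with both TNF libraries below both baseline libraries. In A/A, Rps25, Rpl27 and Rps18 followed at medians of -0.28, -0.22 and -0.22, and Rpl29 (0.44), Rps10 (0.39), Rpl24 (0.33) and Rpl10a (0.29) were a larger part in 8 of 8 classes. In S/S, Rplp0 (-0.42), Rps18 (-0.41) and Rps15a (-0.37) were a smaller part in 8 of 8 classes. Rpl38, known for its effect on patterning of the skeleton, (0.40), Rps29 (0.30) and Rpl4 (0.26) were larger in 8 of 8, and Rps28 (0.26) in 7 of 8.
Some of these same members set the S/S baseline library apart. Against A/A at baseline, Rps29 (-0.42), Rpl38 (-0.40), Rps28 (-0.36) and Rps27 (-0.32) were a smaller part of the pool in S/S, in 8 of 8 classes or, for Rps28, 7 of 8. Rplp0 (0.42), Rpl29 (0.31), Rps2 (0.30) and Rps15a (0.29) were a larger part, in 8 of 8 or, for Rpl29 and Rps2, 7 of 8. In T cell-like cells Rps29 was 3.41, 2.63, 3.45 and 3.32% and Rplp0 was 1.17, 1.45, 1.11 and 1.14%, where the S/S baseline library alone differs from the others. The ratios of TNF in S/S and of S/S at baseline both use that library. After TNF the shifts between genotypes were smaller, from -0.23 for Rpl24, -0.21 for Rpl5, -0.19 for Rpl15 and -0.16 for Rpl27a to 0.12 for Rpl28, 0.10 for Rps4x, 0.10 for Rpl3 and 0.10 for Rpl17. For Rpl30, too, Cell Ranger version and TNF cannot be told apart.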

How the data were processed

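The deposited matrices hold UMI counts, which per the file headers came from Cell Ranger 6.1.2 (both TNF libraries) and 7.1.0 (both baseline libraries), and per the submitters' processing notes against mm39. Whether introns were counted is not given in the sources used here. These counts were whole numbers and were used as deposited. The kit captured 3′ ends, per the labels' protocols. Barcodes with under 250 genes or over 20% mitochondrial UMIs occur in the baseline matrices only.

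Cells were filtered and gated as described in the report. Hepatocyte and erythroid markers needed 3 UMIs, other markers 1. UMIs were summed per class and library, classes under 50 cells were not compared, and CPM were scaled to all UMIs without Rn18s-rs5. Log2 ratios of genes used a pseudocount of 1 CPM and at least 20 UMIs in the pair, and pool ratios at least 100. Called means past 1.5-fold. Intron lengths and neighbours came from GENCODE M21 (GRCm38) by gene identifier. Summing and ratios were tested on simulated data. Python 3.11.15, numpy 2.4.6, scipy 1.17.1 and pandas 2.3.3 were used.

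The members, gene lists and classes were chosen with earlier results of these data known. Named genes followed a rule: the 5 most abundant and the rarest members, those with the largest shifts in the pool per comparison (4 each way) and per class (3 each way), the 6 that differ most between classes, paralog pairs, stalk proteins and Rpsa, and up to 4 genes per related list. Genes named outside this rule, such as Msrb1 and Pirb, and the other members and list genes given without a rule, were chosen after their values were seen. Alternatives changed the denominator, cell filters, gate, depth range, pseudocount, UMI minimum, fold and scaling. Mitochondrial ribosomal protein genes were counted by list only. Results for 1 gene outside the rule are not reported here.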

Additional observations from a re-analysis of the deposited data

Results flagged for a closer look

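These values are set side by side because the direction of a difference was opposite between 2 groups under the same contrast. None of the differences between them was tested, since each group had 1 library.

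In hepatocyte-like cells the ribosomal protein share was higher after TNF in A/A (log2 ratio 0.13) and lower after TNF in S/S (-0.18). The S/S over A/A ratio was positive at baseline and negative after TNF in 3 classes. Neutrophil-like cells had 0.33 at baseline and -0.095 after TNF. B cell-like cells had 0.53 and -0.057. T cell-like cells had 0.23 and -0.078. Over members and genes with under 5 kb of intron, the A/A value of hepatocyte-like cells after TNF was -0.11, and the baseline values of neutrophil-like and T cell-like cells were -0.15 and -0.019, so in these 3 classes the directions no longer differed. B cell-like cells kept opposite signs, 0.14 and -0.076.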

How the results depend on the processing

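No paired analysis was possible because each group had 1 library, and leaving out a replicate was not possible for the same reason. The median log2 ratio of the ribosomal protein share over 8 classes was 0.27, 0.06, 0.41 and 0.08 for TNF in A/A, TNF in S/S, S/S over A/A at baseline and S/S over A/A after TNF. With Rn18s-rs5 in the total it was 0.43, -0.035, 0.54 and 0.097. Without mitochondrial genes the baseline value was 0.42, and under a cell filter of 500 genes and 10% mitochondrial UMIs the TNF value in S/S was 0.087. A stricter gate gave 0.37, -0.15, 0.51 and 0.049 over 6 or 7 classes, the mean over cells 0.20, 0.013, 0.46 and 0.054, and cells with 1000 to 10000 UMIs 0.10, -0.018, 0.47 and 0.031 over 5 or 6 classes. The next 2 alternatives were chosen after seeing the data: genes with under 5 kb of intron gave -0.043, -0.043, 0.095 and 0.039, and a looser gate 0.23 and 0.42 for TNF in A/A and for baseline. Without Malat1 and Neat1 the 4 medians stayed within the counting error. The cause of these shifts was not tested. In Kupffer-like cells the TNF ratio stayed between -0.85 and -0.67 in A/A and between -0.90 and -0.60 in S/S under the 9 alternatives.

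Single classes changed sign in 8 cases. Neutrophil-like cells after TNF in A/A gave 0.038 as a mean over cells and 0.035 with the looser gate. Endothelial-like cells, S/S over A/A after TNF, gave -0.024 as a mean over cells and -0.068 in cells with 1000 to 10000 UMIs. Over genes with under 5 kb of intron, hepatocyte-like cells after TNF in A/A gave -0.11, and at baseline monocyte or macrophage-like, neutrophil-like and T cell-like cells gave -0.0032, -0.15 and -0.019.

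Counts of members past the fold, out of 78 to 80 compared, moved with the fold and the scaling. They are given here without the share of all genes past the same limit, apart from those repeated from above. So they show only how far a count moved, not whether members exceeded all genes. Past 2-fold after TNF there were 17 and 16 lower in Kupffer-like cells of A/A and S/S, 26, 3 and 38 higher in B cell-like, T cell-like and NK or ILC1-like cells of A/A, 0, 0 and 0 in those of S/S, and 12 lower in neutrophil-like cells of S/S. Past 2-fold at baseline there were 0, 0, 2 and 9 higher in S/S in Kupffer-like, B cell-like, NK or ILC1-like and hepatocyte-like cells, and 0 and 0 after TNF in Kupffer-like and hepatocyte-like cells. Scaled to the median ratio of all genes, 20, 17 and 22 members were higher in B cell-like, T cell-like and NK or ILC1-like cells of S/S after TNF, 3 lower in neutrophil-like cells of S/S, 67 higher in Kupffer-like cells of S/S at baseline and 4 higher in hepatocyte-like cells of S/S after TNF. On CPM over genes with under 5 kb of intron, 44 were lower in Kupffer-like cells of S/S after TNF. On that scale 9, 1 and 9 were higher in B cell-like, T cell-like and NK or ILC1-like cells of A/A, and 2, 1 and 0 in those of S/S. At baseline 1, 0, 3 and 23 were then higher in Kupffer-like, B cell-like, NK or ILC1-like and hepatocyte-like cells of S/S, and 13 in Kupffer-like cells of S/S after TNF. A pseudocount of 10 CPM and a minimum of 100 UMIs kept each count within 1.5 times. The Rps27l difference between hepatocyte-like and B cell-like cells was 4.34 on the log2 scale in cells with 1000 to 10000 UMIs, against 4.08, and Rpl3l in neutrophil-like cells of S/S at baseline was 33.96% there, against 19.6%. With 1 library per group, differences between mice could not be seen, and neutrophil-like cells had only 24 and 74 UMIs of Rpl3 at baseline.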
